A study of Rattus norvegicus with 8 samples.

Results

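Bone morphogenetic protein (BMP) signaling was followed in glomeruli of Dahl and SHR rats through 10 genes measured by 18 probe sets, of 14217 genes and 31042 probe sets in all. A probe set is a group of short oligonucleotides on the array that together measure 1 or more transcripts. The genes are the ligands Bmp6, Bmp4 and Bmp7, the coreceptor Hjv, the receptors Bmpr1a and Bmpr2, the inhibitory Smad6, and the targets Id1, Id2 and Id3. They were chosen with the strain differences of Bmp6 and Hjv already seen in these arrays, so the strain differences of the 10 genes are given below as a description, with no test. Tests are given for the change with age, for the interaction of strain and age, and for other genes of the pathway. The lists of those other genes were also chosen with earlier results of these data known. Their strain tests describe these arrays and are not independent evidence. A gene with several probe sets was read from its brightest, by the mean of the 8 arrays, and all levels are log2 expression values as deposited.

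The samples were glomeruli isolated by magnetic retraction from male rats on a low-salt diet. The groups were Dahl salt-sensitive rats, which develop proteinuria spontaneously, at 4 and at 6 weeks of age, and spontaneously hypertensive rats (SHR), which do not become proteinuric, at the same ages. Each group held 2 arrays, labelled as biological replicates 1 and 2, giving 8 arrays. The labels do not say whether RNA of several rats was pooled, and each array is taken here as 1 rat. The 2 are inbred strains that differ throughout the genome and are both prone to hypertension, so a difference between them belongs to the strains and cannot be assigned to proteinuria or to a single allele. The number of arrays limits the precision of every value.

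BMPs are secreted dimers that bind a type I receptor such as Bmpr1a and the type II receptor Bmpr2. The activated type I receptor phosphorylates Smad1, Smad5 and Smad9 (Smad8), which enter the nucleus with Smad4 and switch on targets that include the Id genes and Smad6, a feedback inhibitor. Hemojuvelin, encoded by Hjv, is a membrane-anchored coreceptor that in the liver works with Bmp6 to control hepcidin and so iron uptake, while Bmp7 is best known in the kidney for its part in nephron development.

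Median log2 values of the arrays lay between 4.11 and 4.17, and replicates correlated at 0.989 or more. Replicate 2 of the Dahl 6 weeks rats stood apart. It was the highest of all 8 arrays for 6 of the 10 members, Bmp6 and Hjv among them, against 22.7% of all genes. It was also the lowest for 33.8% of all genes, so its extreme values were not particular to the members. The same array had the lowest score for proximal tubule markers, -1.86, against -0.09 to 0.17 in the other Dahl rats and 0.22 to 0.87 in the SHR rats. A score is the median of the markers' deviations from their means over the 8 arrays, on the log2 scale. Several results of the members are also given without this array.

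Bmp6 showed the widest strain difference among the 3 ligands. Its main probe set read 8.51 and 8.76 at 4 weeks and 9.21 and 9.55 at 6 weeks in Dahl rats, against 4.30 and 3.82 at 4 weeks and 6.63 and 6.55 at 6 weeks in SHR rats (log2). Every Dahl value lay above every SHR value, with no overlap at either age. The strain means were 9.01 ± 0.46 in Dahl rats and 5.32 ± 1.48 in SHR rats (SD, n = 4 each). Dahl glomeruli were higher by 4.58 on the log2 scale at 4 weeks, or 23.8-fold, and by 2.79 at 6 weeks, or 6.91-fold (standard error 0.21 each). Without replicate 2 of the Dahl 6 weeks rats the difference at 6 weeks was 2.62. The SHR values at 4 weeks, 4.30 and 3.82, lay near the median probe set (4.169), so the size of the difference at 4 weeks is uncertain. The second probe set of Bmp6 gave 4.30 at 4 weeks and 3.32 at 6 weeks (log2, standard error 0.33 each), but its SHR values of 2.40 and 2.39 at 4 weeks lay within the dimmest 25% of probe sets, which ended at a mean of 2.602. Its size at 4 weeks is therefore uncertain. The other 2 probe sets of Bmp6 lay within the same dimmest 25% on every array, with means near 2.04 and 1.52 in Dahl rats and 2.13 and 1.55 in SHR rats, and differed by -0.091 and -0.025 (log2).

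**Figure D1:**
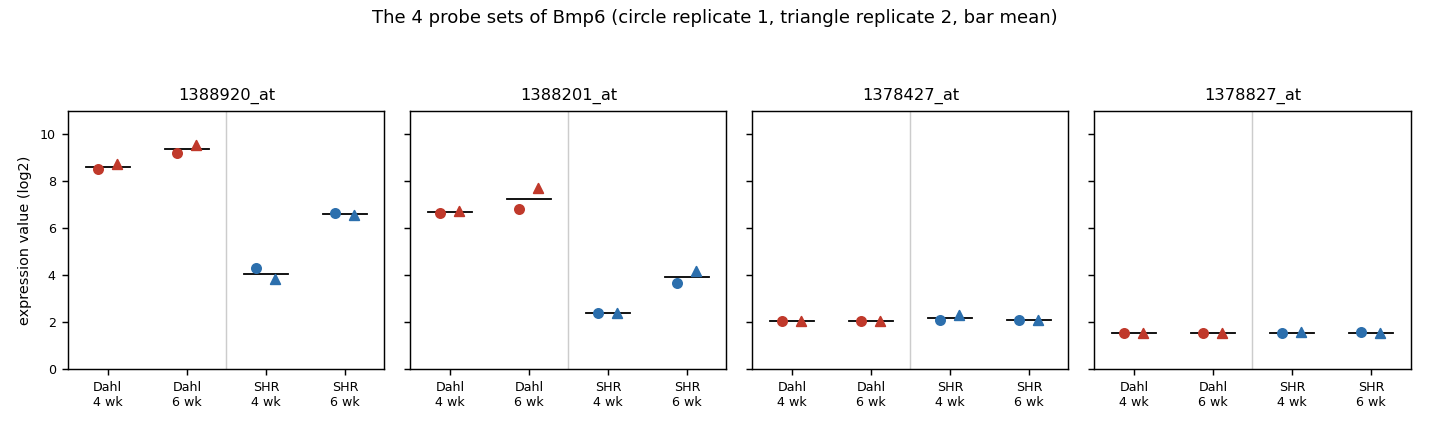
Log2 expression value of the 4 probe sets of Bmp6 in each rat, with Dahl groups left of SHR groups, circles for replicate 1, triangles for replicate 2 and bars for group means. The brightest 2 probe sets separate the strains at both ages, while the other 2 stay near 2.04 and 1.52 in Dahl rats.

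The start of the Bmp6 gene is shown with that of Hjv because these 2 members differed most between the strains. Both are RefSeq sequences of the assembly GRCr8, which was made from a BN rat and not from either strain studied. They run 5′ to 3′ on the gene's strand, with 250 bases before the transcription start and 50 after it. Bmp6 lies at chr17:26675212-26675511 on the minus strand and Hjv at chr2:186754551-186754850 on the plus strand. Capitals mark 3 motifs searched on both strands: GGCGCC, a GC-rich motif bound by BMP Smads, CAGAC, the Smad box, and CANNTG, the E-box bound by helix-loop-helix factors.
Bmp6: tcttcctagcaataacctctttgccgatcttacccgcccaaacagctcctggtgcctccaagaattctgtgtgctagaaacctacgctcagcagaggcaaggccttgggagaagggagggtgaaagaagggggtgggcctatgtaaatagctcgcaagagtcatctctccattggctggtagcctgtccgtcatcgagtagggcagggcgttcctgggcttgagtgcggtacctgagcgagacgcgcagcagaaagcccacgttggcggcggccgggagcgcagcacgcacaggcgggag
Hjv: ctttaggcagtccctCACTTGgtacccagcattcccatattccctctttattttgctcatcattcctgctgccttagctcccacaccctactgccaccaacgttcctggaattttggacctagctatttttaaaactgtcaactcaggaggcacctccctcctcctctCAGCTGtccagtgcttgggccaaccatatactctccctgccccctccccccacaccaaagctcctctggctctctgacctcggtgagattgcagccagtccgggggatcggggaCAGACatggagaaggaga
No motif matched in the Bmp6 window. The Hjv window held a CAGAC match beginning 32 bases after the start and 2 CANNTG matches beginning 235 and 82 bases before it, with no overlap between matches. For comparison, CAGAC occurred in 50.1% and CANNTG in 72.1% of the 33469 rat promoter windows of this length, and GGCGCC in 11%. A match is a run of letters and does not show that a factor binds there.

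Hjv was the other member with a wide strain difference. Its probe set read 10.53 and 10.12 at 4 weeks and 11.16 and 11.59 at 6 weeks in Dahl rats, against 5.96 and 6.19 at 4 weeks and 7.31 and 6.91 at 6 weeks in SHR rats (log2). The lowest Dahl rat stood well above the highest SHR rat. Dahl glomeruli were higher by 4.25 on the log2 scale at 4 weeks, or 19.0-fold, and by 4.27 at 6 weeks, or 19.3-fold (standard error 0.24 each). The difference over both ages was 4.26 and lay between 4.15 and 4.37 when any single array was left out.

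Bmp4 and Bmp7, both of which have roles in kidney development, did not share the Bmp6 pattern. Bmp4 read 7.93 and 8.51 at 4 weeks and 8.42 and 8.42 at 6 weeks in Dahl rats, against 8.65 and 8.64 at 4 weeks and 8.34 and 8.15 at 6 weeks in SHR rats (log2). The strains overlapped, and the mean difference of -0.12 (standard error 0.14) became 0.02 without replicate 1 of the Dahl 4 weeks rats, the lowest of its group. Bmp7 read 8.60 and 8.64 at 4 weeks and 8.44 and 7.84 at 6 weeks in Dahl rats, against 8.66 and 8.89 at 4 weeks and 8.69 and 8.59 at 6 weeks in SHR rats (log2). Its strains overlapped too, with a log2 difference of -0.33 (standard error 0.15), and -0.18 without replicate 2 of the Dahl 6 weeks rats.

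**Figure D2:**
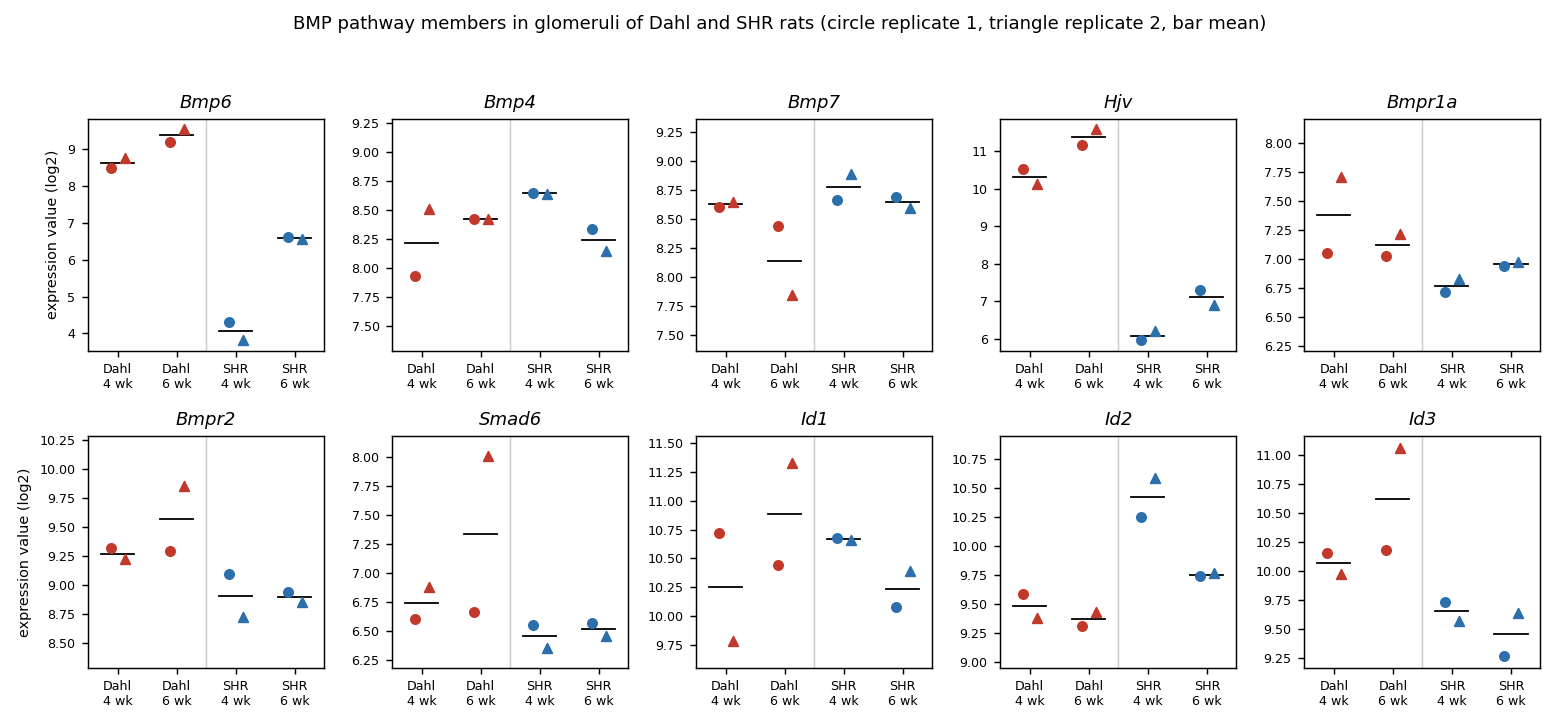
Log2 expression value of each of the 10 members in each rat, with Dahl groups left of SHR groups, circles for replicate 1, triangles for replicate 2 and bars for group means; vertical axes differ between panels. Bmp6 and Hjv differ between the strains by 2.79 or more at each age, and the other panels span narrower ranges.

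The receptors differed by far less than Bmp6 and Hjv. Bmpr1a, a type I receptor, read 7.05 and 7.71 at 4 weeks and 7.03 and 7.22 at 6 weeks in Dahl rats, against 6.71 and 6.83 at 4 weeks and 6.94 and 6.98 at 6 weeks in SHR rats (log2). The strains did not overlap but came close, since the lowest Dahl rat was at 7.03 and the highest SHR rat at 6.98. The log2 difference was 0.39 over both ages (standard error 0.16, or 1.31-fold), 0.55 without replicate 1 and 0.22 without replicate 2 of the Dahl 4 weeks rats. Bmpr2, the type II receptor, read 9.31 and 9.22 at 4 weeks and 9.29 and 9.85 at 6 weeks in Dahl rats, against 9.09 and 8.72 at 4 weeks and 8.94 and 8.85 at 6 weeks in SHR rats (log2). Again the strains did not overlap. Its difference was 0.52 (standard error 0.15, or 1.43-fold), and 0.38 without replicate 2 of the Dahl 6 weeks rats. A second Bmpr2 probe set lay within the dimmest 25%, at 1.90 ± 0.02 in Dahl rats and 1.94 ± 0.003 in SHR rats (SD, n = 4 each), and carried no usable difference.

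Smad6, which blocks BMP signaling and is itself induced by it, was high mainly on 1 array. Its main probe set read 6.60 and 6.88 at 4 weeks and 6.66 and 8.01 at 6 weeks in Dahl rats, against 6.55 and 6.35 at 4 weeks and 6.57 and 6.46 at 6 weeks in SHR rats (log2). The strains did not overlap, but the value of 8.01 came from replicate 2 of the Dahl 6 weeks rats, 1.35 above its partner. The log2 difference was 0.56 over both ages (standard error 0.32), and 0.22 without that array. Of the other 3 Smad6 probe sets, the brightest differed by 0.06 on the log2 scale and the other 2, within the dimmest 25%, by -0.03 each.

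The 3 Id genes, direct BMP targets whose products bind E proteins and keep them from DNA, did not share 1 direction. Id1 read 10.72 and 9.79 at 4 weeks and 10.44 and 11.33 at 6 weeks in Dahl rats, against 10.68 and 10.66 at 4 weeks and 10.08 and 10.40 at 6 weeks in SHR rats (log2). The strains overlapped, and the Dahl replicates lay 0.88 apart or more at both ages. The Id1 difference of 0.12 (standard error 0.30) changed sign, to -0.12 without replicate 1 of the Dahl 4 weeks rats and to -0.10 without replicate 2 of the Dahl 6 weeks rats.

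Id2 was the single member with every Dahl value below every SHR value. Its main probe set read 9.59 and 9.38 at 4 weeks and 9.31 and 9.43 at 6 weeks in Dahl rats, against 10.25 and 10.59 at 4 weeks and 9.74 and 9.76 at 6 weeks in SHR rats (log2). The log2 difference was -0.94 at 4 weeks and -0.38 at 6 weeks (standard error 0.13 each). Its second probe set had the same sign, with -0.63 at 4 weeks and -0.33 at 6 weeks (standard error 0.21 each).

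Id3 was higher in Dahl rats. It read 10.16 and 9.98 at 4 weeks and 10.19 and 11.07 at 6 weeks in Dahl rats, against 9.73 and 9.57 at 4 weeks and 9.27 and 9.64 at 6 weeks in SHR rats (log2). No Dahl value fell within the SHR range. The log2 difference was 0.42 at 4 weeks and 1.17 at 6 weeks (standard error 0.32 each), and the difference at 6 weeks was 0.73 without replicate 2 of the Dahl 6 weeks rats. So Id3 lay on the same side as Bmp6 and Hjv, Id2 on the opposite side, and Id1 on neither.

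The promoter windows of the Id genes are shown because these genes are the pathway's best known transcriptional readout and did not share a direction here. They come from the same RefSeq table and follow the same marking. Id1 lies at chr3:161671314-161671613 on the plus strand, Id2 at chr6:47470946-47471245 on the minus strand and Id3 at chr5:153656041-153656340 on the plus strand.
Id1: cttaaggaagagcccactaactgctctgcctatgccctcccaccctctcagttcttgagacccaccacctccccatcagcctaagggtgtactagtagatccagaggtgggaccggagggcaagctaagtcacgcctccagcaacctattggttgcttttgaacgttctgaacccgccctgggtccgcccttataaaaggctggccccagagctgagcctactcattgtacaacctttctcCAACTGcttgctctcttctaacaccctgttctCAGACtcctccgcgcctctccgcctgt
Id2: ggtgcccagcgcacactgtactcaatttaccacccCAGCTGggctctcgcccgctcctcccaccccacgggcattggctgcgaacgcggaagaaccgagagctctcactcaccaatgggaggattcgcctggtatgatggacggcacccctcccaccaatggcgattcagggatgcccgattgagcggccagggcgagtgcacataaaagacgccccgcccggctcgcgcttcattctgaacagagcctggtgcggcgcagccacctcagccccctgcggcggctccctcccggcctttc
Id3: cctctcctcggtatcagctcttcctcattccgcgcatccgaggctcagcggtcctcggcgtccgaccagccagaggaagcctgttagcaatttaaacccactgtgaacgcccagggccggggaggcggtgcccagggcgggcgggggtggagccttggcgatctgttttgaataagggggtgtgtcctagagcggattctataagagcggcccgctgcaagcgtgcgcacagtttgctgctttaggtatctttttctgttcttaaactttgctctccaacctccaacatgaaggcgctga
Id1 held 1 CANNTG match beginning 9 bases before the start and 1 CAGAC match beginning 23 bases after it. Id2 held 1 CANNTG match, 215 bases before the start, and Id3 held no match in this window. GGCGCC was found in none of the 8 member windows in the table, which covers all members except Bmp7 and Smad6. With 11% of all windows holding it, its absence from so few says little. Sequence outside the windows was not searched.

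Over both ages, 6 of the 10 members had every Dahl value above every SHR value and 1 had every value below, among genes of which 13.7% were wholly above and 13.1% wholly below (9203 genes whose probe sets were brighter than the median). Because the members were chosen on this contrast, nothing is read from these counts. The median log2 difference of the 8 members other than Bmp6 and Hjv was 0.25, against -0.05 over all genes.

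**Figure D3:**
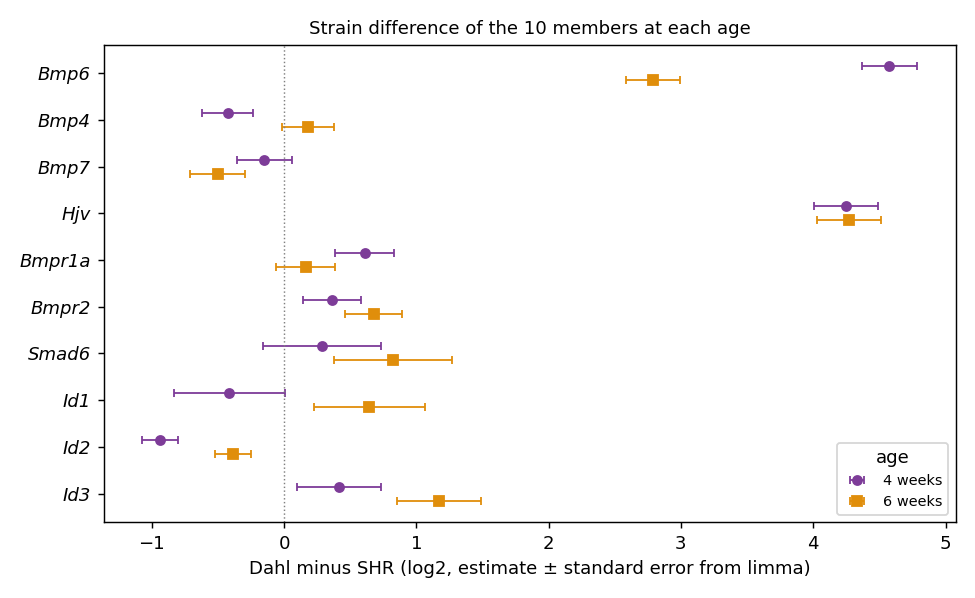
Dahl minus SHR difference (log2, point and standard error from limma, n = 2 rats per strain and age) for each member at 4 weeks (circles) and 6 weeks (squares). Bmp6 at 4.58 and 2.79 and Hjv at 4.25 and 4.27 stand far to the right. The receptors, Smad6 and the Id genes lie between -0.94 and 1.17. The size for Bmp6 at 4 weeks is uncertain, because its SHR values there lie near the median probe set.

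The change from 4 to 6 weeks was tested within each strain. In SHR rats, Bmp6 was higher at 6 weeks than at 4 weeks by 2.53 on the log2 scale, or 5.78-fold (standard error 0.21, adjusted p = 0.0157 by limma), the 1 member that passed among 3.42% of all genes. Both SHR rats at 6 weeks exceeded both at 4 weeks. The values at 4 weeks lay near the median probe set, so the size of this rise is uncertain. The call was lost without replicate 1 (adjusted p = 0.0953 by limma) or replicate 2 (adjusted p = 0.0824) of the SHR 6 weeks rats, and the second probe set gave 1.54 (adjusted p = 0.108). Hjv was higher by 1.03 in SHR rats (adjusted p = 0.127 by limma) and Id2 was at -0.67 (adjusted p = 0.0928), neither of which passed. Restricted to probe sets brighter than the median both did (adjusted p = 0.0408 for Hjv and 0.0482 for Id2 by limma). The other 7 members had differences of -0.43 to 0.18 on the log2 scale in SHR rats, and 0 of them passed.

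In Dahl rats 0 of the 10 members passed for age by limma, where 0.0985% of all genes did, and 2 members had an unadjusted p under 0.05. Bmp6 differed by 0.74 (adjusted p = 0.417) and Hjv by 1.05 (adjusted p = 0.328) between 6 and 4 weeks. For both genes each Dahl rat at 6 weeks was above each at 4 weeks. Without replicate 2 of the Dahl 6 weeks rats the differences were 0.58 for Bmp6 and 0.84 for Hjv. Without replicate 1 of the Dahl 6 weeks rats 1 member passed.

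The interaction, which is the strain difference at 6 weeks less the one at 4 weeks, asked whether the gap widened or narrowed. It passed for 0 of the 10 members by limma, against 0.71% of all genes, and 2 had an unadjusted p under 0.05. The Bmp6 gap was smaller at 6 weeks, with an interaction of -1.79 in log2 units (standard error 0.29, adjusted p = 0.111 by limma). Its size is uncertain, because the SHR values of Bmp6 at 4 weeks lay near the median probe set. Restricted to probe sets brighter than the median the adjusted p was 0.0418, while the second probe set gave -0.98 (adjusted p = 0.579) and the mean of the probe sets -0.67 (adjusted p = 0.204). The Hjv gap was 0.02 larger (standard error 0.34, adjusted p = 0.997), and its sign depended on which array was left out, from -0.19 to 0.24. The Id1 gap was 1.06 larger (standard error 0.59, adjusted p = 0.671). This Id1 value was 0.60 without replicate 2 and 1.52 without replicate 1 of the Dahl 4 weeks rats. Without replicate 2 of the Dahl 6 weeks rats it was 0.62. The Id2 gap was 0.55 higher, that is, less negative (adjusted p = 0.386).

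Genes outside the group with the most similar pattern over the 8 arrays were ranked by the root mean square distance of their centred log2 values. The nearest to Bmp6 were Ifgga2l1 (0.41), Nptx1 (0.48), which encodes a neuronal pentraxin, Arpp21 (0.53) and Myom2 (0.56), a component of the sarcomere, followed by Hjv itself (0.67). The nearest to Hjv were Mamdc2 (0.47), Ogn (0.51), an extracellular proteoglycan, Nptx1 (0.51), Ifgga2l1 (0.58) and Arpp21 (0.62). Nptx1, Ifgga2l1 and Arpp21 stood near both. This is a description over 8 arrays whose main axis is the strain.

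Other genes of the pathway were read from 7 lists, of which 67 of 82 listed genes were on the array with a named probe set. Because the lists were chosen with earlier results of these data known, the strain tests below are not independent evidence. Over both ages 15 rose and 11 fell in Dahl rats by limma with Benjamini-Hochberg adjustment, where 13.2% of all genes were higher and 21.2% lower. With median centring 17 rose and 20 fell, and with quantile normalization 7 rose and 7 fell. Of all genes, 1881 were higher and 3019 lower, and 1294 higher and 1220 lower after quantile normalization. Among the 44 pathway genes brighter than the median probe set 14 were higher and 4 lower, where 19.1% and 12.9% of all such genes were. At 4 weeks 8 were higher and 6 lower, where 7.88% and 6.06% of all genes were, and at 6 weeks 3 were higher and 0 lower, where 1.62% of genes passed in each direction. The counts in single lists below stand against these same shares of all genes, and with few genes per list several are close to them. Some genes stand in more than 1 list, so the counts of single lists overlap. Of 25 genes named under the rule, 6 kept their call whichever array was left out and 19 lost it without at least 1, so the counts also moved, to 7 higher and 6 lower without replicate 2 of the Dahl 6 weeks rats. Without replicate 2 of the SHR 6 weeks rats they moved to 5 higher and 2 lower.

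Among the extracellular antagonists, Nog, which encodes noggin, a trap for BMPs, read 5.26 and 5.28 at 4 weeks and 5.73 and 6.57 at 6 weeks in Dahl rats, against 3.22 and 3.24 at 4 weeks and 3.84 and 4.52 at 6 weeks in SHR rats (log2). Every Dahl value was above every SHR value. It rose by 2.01 in log2 units (standard error 0.24, adjusted p = 0.0111 by limma), a call kept without any single array and in every alternative. The SHR values of Nog other than 4.52 lay below the median probe set (4.169), so the size of its difference is uncertain. Nbl1, another antagonist, rose by 1.05 (standard error 0.12, adjusted p = 0.0107) and also kept its call throughout. Fstl1, a follistatin-like secreted protein, rose by 0.68 (adjusted p = 0.0064), and in SHR rats it was higher at 6 weeks than at 4 weeks by 0.66 (adjusted p = 0.03). The call for age was lost without any 1 of 6 arrays. In this list 6 of 16 measured genes rose and 3 fell, against 13.2% and 21.2% of all genes. The 3 that fell were Bmper (-0.15, adjusted p = 0.0118), Chrdl1 (-0.24, adjusted p = 0.0177) and Chrdl2 (-0.32, adjusted p = 0.043), and lay at 2.70 to 3.63 in Dahl rats and 2.87 to 4.02 in SHR rats (log2), in a range of brightness where all probe sets had a median difference of -0.11. Their calls were lost without 1, 4 and 7 of the 8 arrays in turn. Fstl3 rose by 0.53 (adjusted p = 0.0196) at levels of 3.01 to 3.59 in Dahl rats and 2.51 to 3.05 in SHR rats, and was at 0.05 with another choice of probe set. Bambi, a decoy receptor counted here, rose by 0.73 (adjusted p = 0.0314), a call lost when any of 6 arrays was left out.

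Of the other ligands, only Bmp5 passed among 7 measured genes, at -0.15 on the log2 scale (adjusted p = 0.0116), with levels of 2.83 to 2.87 in Dahl rats and 2.96 to 3.02 in SHR rats at low signal, and all probe sets of its brightness range had a median difference of -0.11. Its difference was -0.06 after quantile normalization, no longer past the threshold (adjusted p = 0.0534 by limma). Among 9 receptors and coreceptors 2 rose and 1 fell, against 13.2% and 21.2% of all genes. Eng, encoding endoglin, rose by 0.66 (adjusted p = 0.0417) and Acvrl1, the endothelial type I receptor ALK1, by 0.49 (adjusted p = 0.043), and both calls were lost without 7 of the 8 arrays in turn. Eng is also in the endothelial marker list. Neo1, which encodes neogenin, a binding partner of hemojuvelin, fell by 0.30 (adjusted p = 0.0266), with 7.41 to 7.58 in Dahl rats and 7.65 to 7.86 in SHR rats (log2), a call lost without 7 of the 8 arrays in turn and with another probe set. Acvr1, the type I receptor ALK2, was higher at 6 weeks than at 4 weeks in SHR rats by 0.74 (adjusted p = 0.0266), lost without any 1 of 6 arrays.

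Among 11 Smads and their regulators 4 rose and 2 fell, against 13.2% and 21.2% of all genes. Tob1, an antiproliferative inhibitor of BMP Smads, averaged 10.03 at 4 weeks and 10.39 at 6 weeks in Dahl rats, against 9.97 at 4 weeks and 9.53 at 6 weeks in SHR rats (log2, n = 2 rats each, SD 0.02 to 0.05). The strains lay close together at 4 weeks and apart at 6 weeks, and the strain difference was larger at 6 weeks than at 4 weeks by 0.79 (interaction adjusted p = 0.0275 by limma). This call was lost without any 1 of 6 arrays, with adjusted p values of 0.0145 to 0.0961 over all alternatives. Smad9 fell by 1.86 (standard error 0.26, adjusted p = 0.0138), with values of 2.51 to 2.62 in Dahl rats and 3.74 to 4.91 in SHR rats. The Dahl values lay at the limit of the dimmest 25% of probe sets (2.602), where the size of a difference is not well measured. It lost the call without replicate 2 of the Dahl 4 weeks rats (adjusted p = 0.051) and differed by -0.04 with another probe set. Skil (0.43) and Smurf2 (0.44), which restrain Smads, and Smad1 (0.09) also passed higher, and Smad4, the common partner Smad, passed lower at -0.26. These 4 calls were each lost without 7 of the 8 arrays in turn, and Smad4 was at 0.18 with its second probe set.

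Of 13 other BMP targets 2 rose and 2 fell, against 13.2% and 21.2% of all genes. Tnfrsf11b, which encodes osteoprotegerin, rose by 0.93 (adjusted p = 0.0422), with 6.59 to 7.38 in Dahl rats and 4.80 to 7.18 in SHR rats (log2), which overlapped, and lost the call without 6 of the 8 arrays in turn. Msx2, a homeobox factor, fell by 0.14 (adjusted p = 0.0482) within the dimmest 25% of probe sets, and lost the call without 7. Id4, of the same family as the members, fell by 0.99 on the log2 scale (adjusted p = 0.0442), a call lost without 7 of the 8 arrays in turn, and lay at 8.11 to 9.0 in Dahl rats and 8.34 to 10.20 in SHR rats, which overlapped. In the iron list Cp, which encodes ceruloplasmin, a copper ferroxidase, rose by 1.20 (standard error 0.10, adjusted p = 0.00658 by limma) and kept its call in every alternative, while Aco1, which encodes iron regulatory protein 1, fell by 1.27 (adjusted p = 0.0194), a call lost without 5 of the 8 arrays in turn. Hfe, a regulator of hepcidin, fell by 0.05 (adjusted p = 0.049) within the dimmest 25% of probe sets, lost the call whichever of the 8 arrays was left out, and was at 0.013 after quantile normalization. The iron list had 1 gene higher and 3 lower of 12 measured, against 13.2% and 21.2% of all genes. The E protein list had 1 gene higher of 3, Tcf12 (0.35, adjusted p = 0.0342), a call lost without 6 of the 8 arrays in turn.

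**Figure D4:**
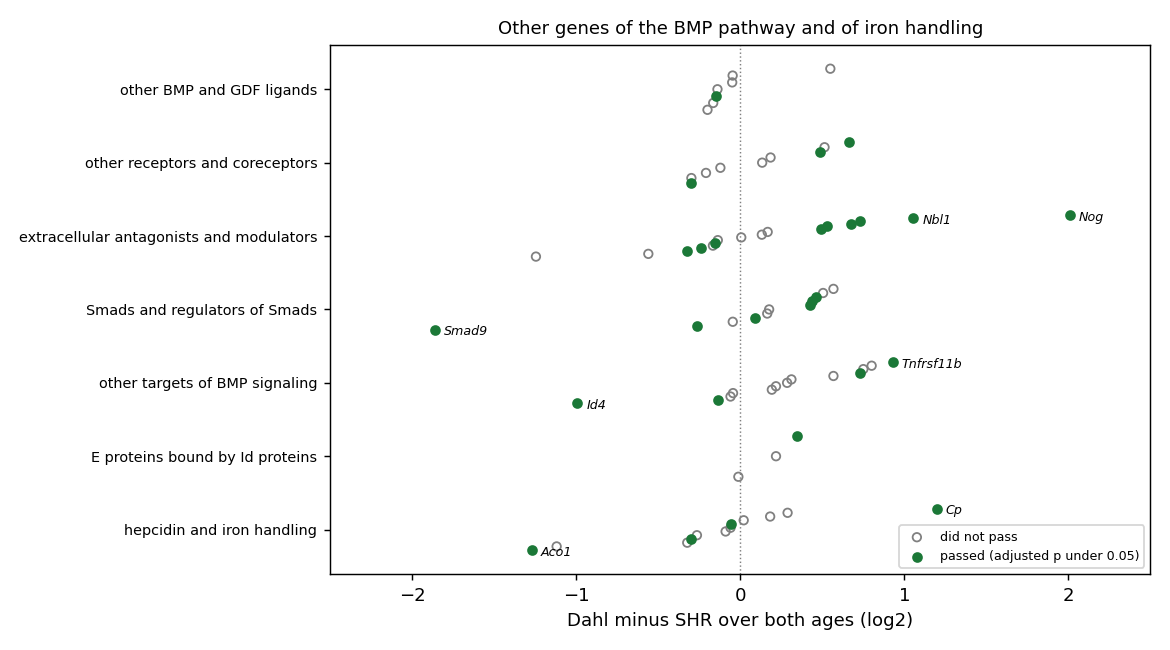
Dahl minus SHR difference over both ages (log2, n = 4 rats per strain) of the measured genes in 7 pathway lists, filled where the adjusted p passed and open where it did not. Nog at 2.01 and Cp at 1.20 lie farthest to the right among genes that passed, and Smad9 at -1.86 farthest to the left. The sizes for Nog and Smad9 are uncertain, because most SHR values of Nog and the Dahl values of Smad9 are dim.

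Markers of glomerular and other cells were read beside these results. In bulk RNA, fewer cells of a type and less RNA per cell cannot be told apart. The counts that follow stand against 13.2% of all genes higher and 21.2% lower, or 19.1% and 12.9% of those brighter than the median. Of the podocyte markers 8 of 16 were higher in Dahl rats and 0 lower, with scores of -0.01 to 0.48 in Dahl rats and -0.53 to -0.05 in SHR rats. Endothelial markers were higher for 9 of 14 (scores -0.05 to 0.66 in Dahl rats and -0.44 to -0.12 in SHR rats), and mesangial and smooth muscle markers for 9 of 13 (0.21 to 0.54 in Dahl rats and -0.51 to -0.18 in SHR rats). Defining podocyte genes were bright on every array, with Nphs1, which encodes nephrin, at 12.10 to 12.65 in Dahl rats and 11.84 to 12.26 in SHR rats (log2). Proximal tubule markers passed higher for 1 and lower for 2 of 19 (scores -1.86 to 0.17 in Dahl rats and 0.22 to 0.87 in SHR rats). Slc34a1 read 12.15 to 13.62 in Dahl rats and 13.71 to 13.79 in SHR rats. Distal nephron markers passed lower for 6 of 17 and higher for 0 (scores -1.14 to 0.22 in Dahl rats and 0.07 to 0.72 in SHR rats). The median differences over both ages were -1.08 for proximal tubule and -0.80 for distal nephron markers, against -0.05 over all genes. Both lowest scores came from replicate 2 of the Dahl 6 weeks rats, and the median differences are not given without that array. Leukocyte markers passed higher for 7 and lower for 5 of 18. The part of these shifts in the differences of the members was not tested.

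Hjv is expressed in liver and muscle, so the markers of both tissues were read as well. Hepatocyte markers were dimmer than the median probe set for 17 of 20, with scores of -0.05 to -0.02 in Dahl rats and 0.02 to 0.04 in SHR rats. Striated muscle markers were so for 27 of 30, with scores of -0.06 to -0.02 in Dahl rats and 0.02 to 0.04 in SHR rats. The bright exceptions were Myh1 at 11.60 to 12.44 in Dahl rats and 12.03 to 12.53 in SHR rats, Tnnc1 at 11.92 to 12.62 in Dahl rats and 10.30 to 12.05 in SHR rats, and Myoz1 at 6.31 to 6.87 in Dahl rats and 5.99 to 6.11 in SHR rats. In the muscle list 2 genes passed higher and 12 lower in Dahl rats, and in the hepatocyte list 0 passed higher and 8 lower. Of all genes, 13.2% were higher and 21.2% lower. The median log2 difference was -0.059 in the muscle list and -0.092 in the hepatocyte list. All probe sets with means up to 2.602 had a median difference of -0.058, and those from 2.602 to 4.169 had -0.106. With most markers this dim, the counts are not read as a loss of muscle or hepatocyte transcripts. Outside the muscle list, the sarcomere gene Myom2 averaged 8.21 at 4 weeks and 9.32 at 6 weeks in Dahl rats (log2). In SHR rats it averaged 2.92 at 4 weeks and 5.33 at 6 weeks. Myom2 was nearer to Bmp6 in pattern than Hjv was. The part of these genes in the Bmp6 and Hjv differences was not tested.

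**Figure D5:**
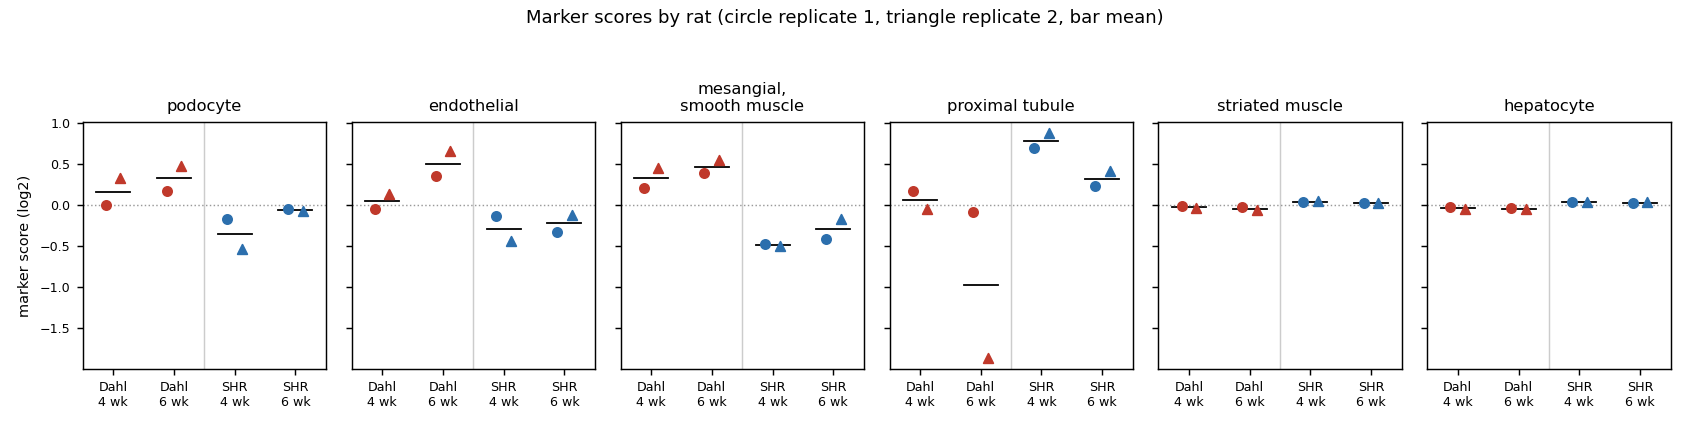
Marker score (median log2 deviation from the mean over 8 arrays) of 6 cell type lists in each rat, with Dahl groups left of SHR groups, circles for replicate 1, triangles for replicate 2 and bars for group means. The proximal tubule score of replicate 2 in the Dahl 6 weeks group, -1.86, lies far below every other value. Muscle and hepatocyte scores stay within -0.06 to 0.04. Most markers of those lists, 27 of 30 and 17 of 20, are dimmer than the median probe set, so these scores say little about muscle or liver RNA.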

How the data were processed

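Expression was measured on 8 Affymetrix rat genome arrays, 1 per rat, with 2 rats in each of 4 groups taken from the labels. The deposited log2 values had been background-corrected, normalized and summarized by the authors, whose notes name RMA and GCRMA. The sources used here do not state which of the 2 made the values, or any version. The values were not normalized again, and the number of arrays limits the precision.

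After removal of 57 controls from 31099 probe sets, 31042 were tested. The array annotation named 1 gene for 20826, several for 436, which were given no name, and none for 9780. This gave 14217 genes, 4525 of them with several probe sets. The 4 group means were fitted with limma 3.58.1 in R 4.3.3 (4 residual and 0.921 prior degrees of freedom), with Benjamini-Hochberg adjustment over all probe sets at 0.05. The script was checked on simulated data. The members and gene lists were chosen with earlier results of these data known. Genes named are the 10 members, up to 4 genes per pathway list and direction with the smallest p over both ages, the 5 genes nearest to Bmp6 and to Hjv, and up to 3 of each marker list by mean. Acvr1 is named in addition because it passed in another comparison, and was chosen after its values were seen. A list's genes were fitted with all others, and no list test was run.

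The alternatives were quantile normalization, median centring, an intensity trend with robust variance, the probe sets brighter than the median, a replicate block, leaving out each array, an additive model, the arrays of 1 age, the methods' t-test, the mean of a gene's probe sets and the probe set with the second highest mean. The methods' t-test is the unpaired Student's t-test of the paper's statistics, which name no test for the arrays. It was run here on 4 Dahl against 4 SHR arrays, with both ages together. Promoter windows came from RefSeq (GRCr8), which held 8 of the 10 members. Figures were drawn with Python 3.11.15 and matplotlib 3.10.9.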

Additional observations from a re-analysis of the deposited data

Results flagged for a closer look

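A pair of values stood apart from the rest of their strain, by a test of the gap to the nearest rat over the range of the 4 Dahl rats, which chance passes in about 1 of 20 groups. The test was run on each of the 10 members in each strain, so a pass can arise by chance alone. The 4 rats also mix 2 ages, so a gap need not lie between replicates. For Bmp4 the gap was 0.855 of the range, with replicate 1 of the Dahl 4 weeks rats lowest at 7.93 (log2). For Bmpr2 it was 0.848, with replicate 2 of the Dahl 6 weeks rats highest at 9.85. The strain difference of Tob1 was larger at 6 weeks than at 4 weeks by 0.792 on the log2 scale (interaction adjusted p = 0.0275 by limma, past the threshold in 5 of 14 alternatives), with both Dahl rats higher and both SHR rats lower at 6 weeks than at 4 weeks.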

How the results depend on the processing

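The strain differences of Bmp6 (3.56 to 3.80) and Hjv (4.15 to 4.37) kept their sign without any single array. The Bmp6 difference was 1.84 on the log2 scale as the mean of its 4 probe sets, 2 of which lie within the dimmest 25%. The rise of Bmp6 in SHR rats with age (2.29 to 2.77 without single arrays) was 1.54 with the second probe set, no longer past the threshold.

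Counts of calls moved more. Without single arrays, genes called over both ages ran from 1106 to 5560, at 4 weeks from 422 to 2196, at 6 weeks from 19 to 1884, for age in Dahl rats from 0 to 612, for age in SHR rats from 41 to 620 and for the interaction from 3 to 295, against 4900, 1982, 460, 14, 486 and 101 with all arrays. Pathway genes ran from 5 to 22 higher and from 2 to 10 lower, and members called ran from 0 to 1 for age in either strain. Quantile normalization gave 2514 genes over both ages, with 7 pathway genes higher and 7 lower. Median centring gave 17 higher and 20 lower, and an intensity trend with robust variance gave 18 lower, with 4332 genes at 4 weeks and 3282 at 6 weeks. Probe sets brighter than the median gave 2842 genes over both ages, 742 at 6 weeks, 37 for age in Dahl rats and 771 for age in SHR rats, with 5 pathway genes lower, 3 members called for age in SHR rats (Bmp6, Hjv and Id2) and 1 (Bmp6) for the interaction. The arrays of 1 age gave 472 genes at 4 weeks and 0 at 6 weeks with limma. The methods' t-test with Benjamini-Hochberg adjustment called 4492 genes over both ages, with 5 pathway genes higher and 15 lower, and unadjusted it called 6168 genes.

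The replicate block gave 2730 genes over both ages, with 7 pathway genes higher, 1143 genes at 4 weeks, 156 at 6 weeks, 1 for age in Dahl rats, 253 for age in SHR rats and 23 for the interaction. The labels do not say that the replicate numbers pair the rats. Deviations of same-numbered rats correlated at -0.225 to 0.236 between groups, which cannot settle whether same-numbered arrays were handled together. The block kept the count of members called for age and for the interaction.

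Signs reversed for Hjv in the interaction (-0.18 without replicate 2 of the Dahl 4 weeks rats, -0.19 without replicate 2 of the Dahl 6 weeks rats, -0.09 without replicate 2 of the SHR 4 weeks rats and -0.18 without replicate 2 of the SHR 6 weeks rats), for Bmpr2 with its dim second probe set (-0.034), for Smad4 with its second probe set (0.18) and for Hfe under quantile normalization (0.013). Differences smaller than their standard errors changed sign too. Bmp4 over both ages was at 0.02 without replicate 1 of the Dahl 4 weeks rats. Id1 over both ages was at -0.12 without that array and at -0.10 without replicate 2 of the Dahl 6 weeks rats. At 4 weeks the Id1 difference went from -0.41 to 0.05 without replicate 2 of the Dahl 4 weeks rats. The causes were not tested. Dim signal limits SHR levels of Bmp6 at 4 weeks.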
